A study of Mus musculus with 11 samples.

Results

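The protein genes of the small nucleolar ribonucleoproteins (snoRNPs) were followed in 11 mouse tumors in which a MYCN transgene was switched on or had been switched off. The set held 10 of the 23284 genes listed for each tumor, chosen by symbol. It comprised Fbl, Nop56, Nop58 and Nhp2l1 of the box C/D particle, Dkc1, Nhp2, Nop10 and Gar1 of the box H/ACA particle, the H/ACA assembly factor Naf1, and Nolc1, a chaperone of both kinds of particle. All 10 genes passed the filter on low counts, as did 15237 genes in all.

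Poly(A) RNA was sequenced from small cell lung tumors, a neuroendocrine lung cancer, of 1 labelled genotype: Rb;p53,TRE-MYCN, LSL-RTTA. In this design the transactivator lies behind a stop cassette that Cre removes, and it drives the transgene only in the presence of doxycycline. The MYCN ON group consisted of 7 tumors kept on doxycycline and the MYCN OFF group of 4 tumors taken 7 days after doxycycline was withdrawn, so both groups carried the same alleles. The Cre, the ages of the mice and the species of the MYCN sequence are not given in the sources used here, and no label ties a tumor to a mouse. The p-values below therefore measure the spread between tumors, which may not be independent animals, and the action of MYCN cannot be told apart from that of the drug.

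Box C/D and box H/ACA particles are the machines that modify ribosomal RNA in the nucleolus. Each carries a small nucleolar RNA (snoRNA) that base-pairs with the target and a protein core that does the chemistry: C/D particles methylate the ribose of the nucleotide, and H/ACA particles turn uridine into pseudouridine. Some particles, above all the U3 particle, help to cleave the ribosomal precursor in place of modifying it. The H/ACA core also forms part of telomerase, and mutations of human DKC1, NHP2 and NOP10 cause the telomere disease dyskeratosis congenita. Ribosome production is among the processes that MYC proteins are best known to drive, and several snoRNP protein genes are textbook MYC targets.

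The guide RNAs of these particles are mostly cut out of introns, and some lie in introns of the genes for the proteins themselves. In the GENCODE M21 annotation (build GRCm38), 10 snoRNAs lay inside introns of members, 5 in Nop56, 4 in Nop58 and 1 in Dkc1, and the other 7 members held none. The 5 sequences shown here are examples: 3 with both C/D elements, Snord57 with box D alone, and the H/ACA-type Gm24451. Capitals mark TGATG, the core of box C, within the first 25 bases, and CTGA, box D, within the last 20 bases. In the H/ACA-type sequence they mark the ACA near the 3′ end and the first of 2 matches to ANANNA, the letters of the hinge. Which of the 2 matches is the hinge of the folded RNA was not examined. All 5 are on the plus strand and are written 5′ to 3′.
Snord110, in Nop56, chr2:130275506-130275573: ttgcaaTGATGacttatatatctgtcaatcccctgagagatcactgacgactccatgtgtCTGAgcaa
Snord57, in Nop56, chr2:130278016-130278087: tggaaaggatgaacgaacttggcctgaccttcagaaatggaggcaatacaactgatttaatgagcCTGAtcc
Snord70, in Nop58, chr1:59691934-59692020: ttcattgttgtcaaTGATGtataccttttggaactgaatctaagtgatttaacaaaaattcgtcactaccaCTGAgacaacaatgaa
Snord11, in Nop58, chr1:59704790-59704873: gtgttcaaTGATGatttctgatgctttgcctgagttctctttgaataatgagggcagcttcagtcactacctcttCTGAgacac
Gm24451, in Nop56, chr2:130276237-130276369: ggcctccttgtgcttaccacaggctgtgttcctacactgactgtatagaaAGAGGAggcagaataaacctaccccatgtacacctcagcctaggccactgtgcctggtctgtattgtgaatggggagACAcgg

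Of the 10 intronic snoRNAs, 7 held both C/D letters in these windows, Snord57 held box D alone, Gm24451 had the H/ACA letters, and Gm25520 in Dkc1 held neither pair. Both C/D letters were found in 339 of 454 annotated snoRNAs of 60 to 100 bases (74.7%). Thus 2 genes for C/D scaffold proteins carried C/D-type guide RNAs in their own introns. Such RNAs are released from the spliced intron and lack a poly(A) tail, so their levels cannot be read from these libraries. The counts below are those of the host genes' messenger RNAs, with any reads from an overlapping gene.

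The MYCN ON libraries held 10324089 to 13123838 counted reads and the MYCN OFF libraries 8951733 to 12190957. Mycn checked the labels. It was at 36.5 to 171 CPM in MYCN ON and at 5.63 to 15.7 CPM in MYCN OFF, with no overlap. CPM are read counts scaled to a common depth with TMM factors. Since the species of the MYCN sequence is not given, how far the Mycn level measures the transgene is not known. Of the neuroendocrine markers, Chga (chromogranin A) and Syp (synaptophysin), chosen after their values were seen, had reads in every tumor: Chga was at 98.8 to 994 CPM in MYCN ON and at 225 to 1072 CPM in MYCN OFF, and Syp was at 61.4 to 188 CPM in MYCN ON and at 83.8 to 197 CPM in MYCN OFF. Lung epithelium markers varied over a far wider range, at 59.2 to 3580 CPM in MYCN ON and 143 to 34400 CPM in MYCN OFF. Immune markers summed to 189 to 874 CPM in MYCN ON and 368 to 6930 CPM in MYCN OFF, with 7 of 9 tested markers lower in MYCN ON. Mitosis markers summed to 2520 to 4920 CPM in MYCN ON and 517 to 3490 CPM in MYCN OFF, with 6 of 10 higher in MYCN ON. The part of these differences in the results was not tested beyond the fits given below. In bulk tumors, fewer cells of a type and less RNA per cell cannot be told apart.

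The snoRNP protein genes were higher in MYCN ON almost as a whole. Of the 10 genes, 9 rose and 0 fell at an edgeR quasi-likelihood adjusted p below 0.05, while 16.0% of all genes tested rose and 13.4% fell (29.4% in either direction). In the same 9 genes every MYCN ON tumor lay above every MYCN OFF tumor, a pattern seen in 11.4% of all genes tested, and the opposite order, seen in 5.41%, was found in 0 members. The median log2 fold change was 1.59 over the 10 genes, 1.75 over the 4 C/D core genes and 1.54 over the 4 H/ACA core genes, against 0.00 over all genes. Naf1 was the exception.

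**Figure D1:**
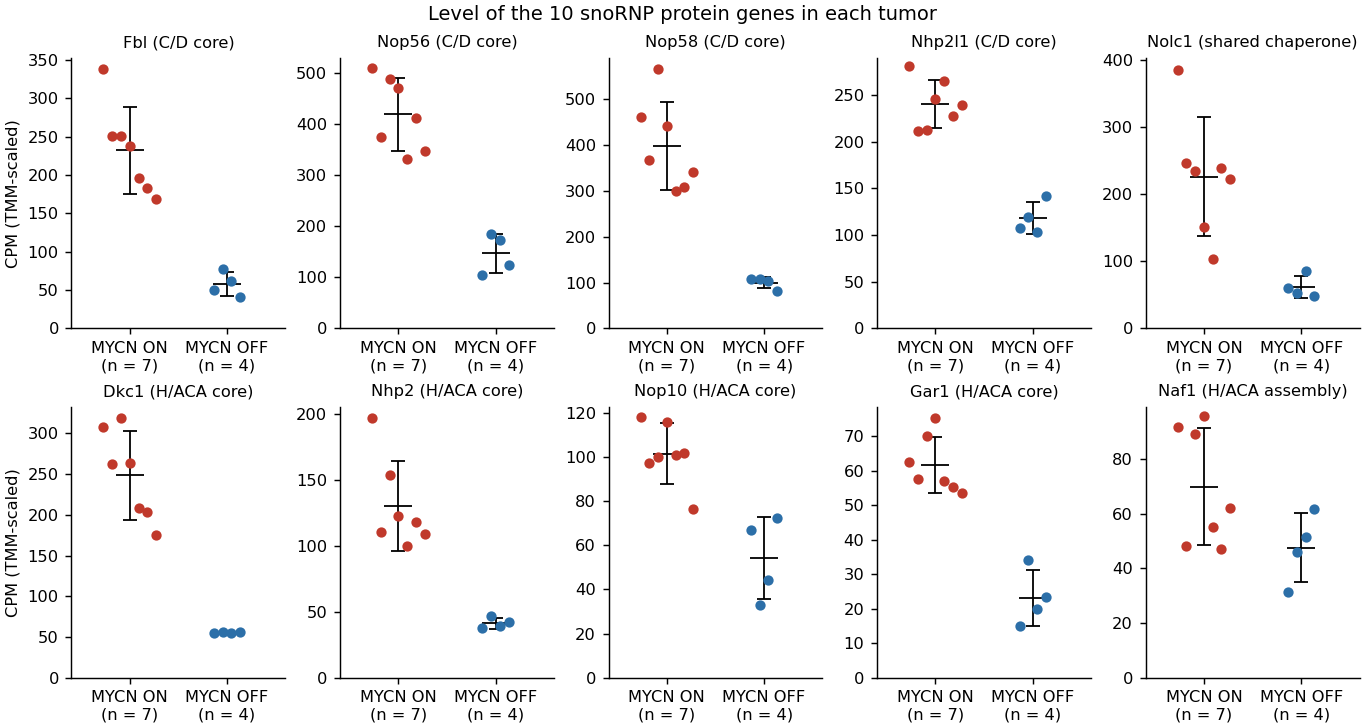
Level of each of the 10 genes in CPM (linear axes from 0), with 1 point per tumor and the mean and SD drawn as bars, for MYCN ON (red, n = 7) and MYCN OFF (blue, n = 4). The groups are apart in 9 panels and overlap in that of Naf1; the 4 MYCN OFF points of Dkc1 lie between 54.3 and 56.0 CPM.

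All 4 C/D core genes rose, with log2 fold changes of 1.02 to 2.005. Fbl encodes fibrillarin, the methyltransferase of the particle. Its level was lowest at 168 CPM, 238 CPM at the median and highest at 338 CPM in MYCN ON, and it was 50.02, 78.0, 62.3 and 41.0 CPM in MYCN OFF tumors 1 to 4. The lowest MYCN ON tumor was thus above the highest MYCN OFF tumor, with a fold change of 4.01 (log2 2.005, SE 0.24, edgeR adjusted p = 5.59e-04). Nop58 and Nop56 are paralogous scaffold proteins that hold fibrillarin on the guide RNA. Nop58 was at 299.8 CPM in its lowest, 369 CPM in its median and 566 CPM in its highest MYCN ON tumor, and at 109, 107, 102.5 and 81.9 CPM in the MYCN OFF tumors. The MYCN OFF tumors were close to each other and all far below MYCN ON, a 3.98-fold difference (log2 1.99, SE 0.21, edgeR adjusted p = 3.43e-04). Nop56 was at 333 CPM in its lowest, 412 CPM in its median and 509 CPM in its highest MYCN ON tumor, and at 104, 185, 174 and 125 CPM in the MYCN OFF tumors. The groups were apart here too, by 2.85-fold on average (log2 1.51, SE 0.21, edgeR adjusted p = 8.53e-04).

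Nhp2l1, also known as Snu13, binds the kink-turn formed by boxes C and D and serves as well in the U4 particle of the spliceosome. It was at 212 CPM in its lowest, 239 CPM in its median and 280.5 CPM in its highest MYCN ON tumor, and at 108, 119, 104 and 142 CPM in the MYCN OFF tumors. Its difference, 2.03-fold (log2 1.02, SE 0.14, edgeR adjusted p = 0.00100), was the smallest of the C/D core genes without a covariate, and the groups did not overlap. With the mitosis covariate its log2 fold change was 1.13 and that of Nop56 was 1.03, so the order of these genes was not fixed, and no difference between them was tested.

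All 4 H/ACA core genes rose, with log2 fold changes of 0.91 to 2.17. Dkc1 encodes dyskerin, the pseudouridine synthase. It was at 175 CPM in its lowest, 263 CPM in its median and 319 CPM in its highest MYCN ON tumor, and at 54.3, 56.0, 54.2 and 55.6 CPM in the MYCN OFF tumors. In MYCN OFF the values were nearly equal, on 565 to 803 reads per tumor, a likeness among 4 tumors that was not tested. The mean level was 248.5 ± 54.7 CPM in MYCN ON against 55.0 ± 0.881 CPM in MYCN OFF (SD, n = 7 and 4). By p-value Dkc1 ranked 3 among all 15237 genes (log2 fold change 2.17, SE 0.19, edgeR adjusted p = 3.18e-04). Nhp2, the H/ACA relative of Nhp2l1, was at 99.9 CPM in its lowest, 118 CPM in its median and 197 CPM in its highest MYCN ON tumor. In the MYCN OFF tumors Nhp2 was at 37.3, 46.4, 38.9 and 41.9 CPM. The groups were well apart (3.16-fold, log2 1.66, SE 0.21, edgeR adjusted p = 6.06e-04), with MYCN ON tumor 1 above the other MYCN ON tumors.

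Gar1 binds the catalytic domain of dyskerin in the mature particle. It was at 53.5 CPM in its lowest, 57.6 CPM in its median and 75.4 CPM in its highest MYCN ON tumor, and at 14.9, 34.0, 19.9 and 23.3 CPM in the MYCN OFF tumors. MYCN OFF tumor 2 came nearest to MYCN ON without reaching it, and the gene differed 2.68-fold (log2 1.42, SE 0.22, edgeR adjusted p = 0.00152). Nop10, a very small protein that packs against dyskerin, was at 76.6 CPM in its lowest, 101 CPM in its median and 118.5 CPM in its highest MYCN ON tumor. In the MYCN OFF tumors Nop10 was at 67.1, 32.8, 44.5 and 72.5 CPM. The gap between MYCN ON tumor 7 and MYCN OFF tumor 4 was narrow, and Nop10 had the weakest call (1.87-fold, log2 0.91, SE 0.22, edgeR adjusted p = 0.012). With library totals as the only scaling, the call of Nop10 was lost (adjusted p = 0.0614).

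Naf1 brings dyskerin to nascent H/ACA RNA and is then exchanged for Gar1. It was at 47.2 CPM in its lowest, 62.2 CPM in its median and 95.8 CPM in its highest MYCN ON tumor, and at 31.2, 46.0, 51.3 and 61.5 CPM in the MYCN OFF tumors. The groups overlapped: MYCN ON tumors 1, 3 and 4 lay above 89 CPM, while tumors 2, 5 and 6 lay among the MYCN OFF values. The difference did not pass the test (log2 fold change 0.56, SE 0.27, edgeR adjusted p = 0.128).

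Nolc1, or Nopp140, shuttles between nucleolus and Cajal bodies and binds both kinds of particle. It was at 103 CPM in its lowest, 235 CPM in its median and 386 CPM in its highest MYCN ON tumor, and at 60.4, 52.6, 85.9 and 48.1 CPM in the MYCN OFF tumors. Its spread within MYCN ON was wide, at 226 ± 88.4 CPM against 61.8 ± 16.9 CPM in MYCN OFF (SD, n = 7 and 4), and the groups did not overlap (log2 fold change 1.87, SE 0.33, edgeR adjusted p = 0.00247).

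Within MYCN ON, the same tumors were often highest or lowest. Tumor 1, which had the highest Mycn level at 171 CPM, was the highest MYCN ON tumor for 6 members. Its TMM factor, 0.8345, was the lowest of all tumors, which raises its CPM values relative to library totals. Tumor 5, which had the lowest Mycn level at 36.5 CPM, was the lowest for 4 members, and tumor 7, at 70.3 CPM of Mycn, was the lowest for another 4. Tumor 6 had the second highest Mycn level, 139.9 CPM, and was not the highest for any member, so the order of the tumors for Mycn was not that for the snoRNP genes. Tumor 5 also had the highest summed lung markers in MYCN ON, 3578 CPM. The part of scaling and lung tissue in these orders was not tested.

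**Figure D2:**
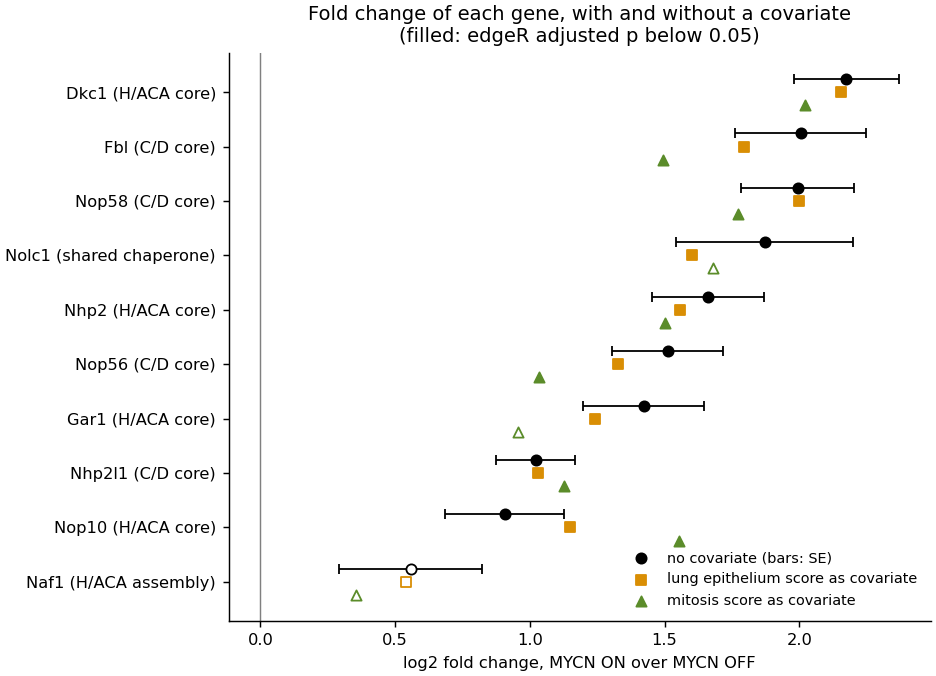
Log2 fold change of MYCN ON over MYCN OFF for each gene without a covariate (circles, with SE bars), with the lung epithelium score as a covariate (squares) and with the mitosis score as a covariate (triangles). Filled symbols passed an edgeR adjusted p of 0.05: 9 genes without a covariate, 9 with the lung score and 7 with the mitosis score.

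Lung and mitosis markers moved with the groups, so the members are given with these scores as covariates. For both scores, only MYCN OFF tumor 2 lay within the MYCN ON range. The mitosis score was 7.48 to 8.21 in MYCN ON and 5.21, 7.64, 6.94 and 5.47 in MYCN OFF tumors 1 to 4. These fits therefore separate the group from the markers poorly, and a lost call cannot be assigned to either. With the lung epithelium score as a covariate 9 members kept their call, the median log2 fold change was 1.44, and 7.78% of all genes were called higher. With the mitosis score as a covariate 7 did, the median being 1.498, and 3.22% of all genes were called higher. Gar1 (log2 fold change 0.96, edgeR adjusted p = 0.0663) and Nolc1 (1.68, adjusted p = 0.0953) then missed the threshold, and Nop10 had a larger difference, 1.55.

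Tumors were also divided at 150 CPM of summed lung markers, a line drawn after the data were seen, with MYCN ON tumor 7 at 140.1 and MYCN OFF tumor 2 at 142.8 CPM just under it. Below the line, all 10 genes were higher in each of 5 MYCN ON tumors than in the lone MYCN OFF tumor, number 2, an order that 24.0% of all genes tested showed there. Above it, 9 genes were higher in both MYCN ON tumors than in each of 3 MYCN OFF tumors, again against 24.0% of all genes, and Naf1 overlapped. Dkc1, for example, was at 175 to 308 CPM in MYCN ON against 56.0 CPM in MYCN OFF below the line, and at 208 to 319 CPM in MYCN ON against 54.2 to 55.6 CPM in MYCN OFF above it. These subsets are too small to carry a statement about the members: edgeR called 0 genes of 15741 below the line and 0 of 15690 above it, with 9 members at an unadjusted p below 0.05 in each. Limma voom called 3 and 0 genes, with 0 members in each. DESeq2 called 8 members higher in each, against 3.94% of genes below the line and 7.97% above it, where the lone MYCN OFF tumor below the line is assumed to vary like the others.

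C/D and H/ACA particles were compared within each tumor through the mean log2 CPM of their 4 core genes. The C/D mean was 8.26 ± 0.22 in MYCN ON against 6.62 ± 0.20 in MYCN OFF, and the H/ACA mean was 6.88 ± 0.23 in MYCN ON against 5.33 ± 0.12 in MYCN OFF (SD, n = 7 and 4). Every MYCN ON tumor was above every MYCN OFF tumor in both means, and the groups differed by 1.63 for C/D and 1.55 for H/ACA on the log2 scale. The C/D mean exceeded the H/ACA mean by 1.38 ± 0.052 in MYCN ON (1.32 to 1.48) and by 1.29 ± 0.24 in MYCN OFF (0.977 to 1.495). The MYCN ON range lay inside the MYCN OFF range. In MYCN OFF tumors 1 to 4 the difference was 1.22, 1.495, 1.48 and 0.977, so the wider spread there came from tumors 1 and 4. Those tumors also had the highest summed lung markers, 34400 and 5572 CPM, and the lowest summed mitosis markers, 517.5 and 598 CPM. Whether the groups differ in spread, and the part of these markers in it, was not tested. These means are given without a test, since the genes were chosen with earlier results known, and they depend on transcript length, so the offset itself compares no amounts.

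Single subunits were compared through 4 ratios within each tumor, tested by a two-sided exact permutation test whose smallest possible p was 0.00303. The pairs come from the same genes, chosen with earlier results known, so the p-values of the ratios are descriptive. For the catalytic subunits no difference in balance was detected: the log2 ratio of Dkc1 to Fbl was 0.10 ± 0.14 in MYCN ON and -0.03 ± 0.40 in MYCN OFF. The difference of 0.13 did not pass (exact p = 0.448, adjusted over the 4 ratios 0.448), and it turned to -0.017 without MYCN OFF tumor 2. The MYCN ON tumors ranged here from -0.13 to 0.34, inside the wider MYCN OFF range of -0.48 to 0.44.

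Gar1 gained on Naf1. The log2 ratio of Gar1 to Naf1 was -0.13 ± 0.31 in MYCN ON (-0.56 to 0.26), and in the MYCN OFF tumors it was -1.06, -0.43, -1.36 and -1.40. The messenger RNA of Gar1 was thus higher relative to that of Naf1 by 0.93 (exact permutation p = 0.00606, adjusted p = 0.0242). MYCN OFF tumor 2 lay inside the MYCN ON range. Neither the proteins nor the particles were measured. Without MYCN OFF tumor 3 or tumor 4 the difference was 0.83 or 0.82, and the adjusted exact permutation p was 0.0667 for either.

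Nhp2 gained on Nhp2l1, its C/D relative. The log2 ratio of Nhp2 to Nhp2l1 was -0.91 ± 0.33 in MYCN ON (-1.41 to -0.46), and in the MYCN OFF tumors it was -1.53, -1.36, -1.41 and -1.76. MYCN ON tumor 5 alone fell within the MYCN OFF range, and the difference was 0.60 (exact permutation p = 0.0152, adjusted p = 0.0303). Leaving out any 1 of the 4 MYCN OFF tumors ended this call, with differences of 0.60, 0.65, 0.64 and 0.52 without tumors 1, 2, 3 and 4 and adjusted exact permutation p-values of 0.0556, 0.05, 0.0833 and 0.0667.

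The scaffold pair moved the other way. The log2 ratio of Nop56 to Nop58 was 0.09 ± 0.19 in MYCN ON (-0.21 to 0.41), and in the MYCN OFF tumors it was -0.06, 0.79, 0.76 and 0.61. Nop56 was thus lower relative to Nop58 by 0.43 on average, although MYCN OFF tumor 1 lay inside the MYCN ON range (difference -0.43, exact permutation p = 0.0364, adjusted p = 0.0485). This result sat at the threshold: it was lost on leaving out any of MYCN ON tumors 1, 2, 3, 4, 5 and 7 or MYCN OFF tumors 2, 3 and 4, with adjusted exact permutation p-values of 0.0333 to 0.144 over the 11 tumors left out in turn.

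**Figure D3:**
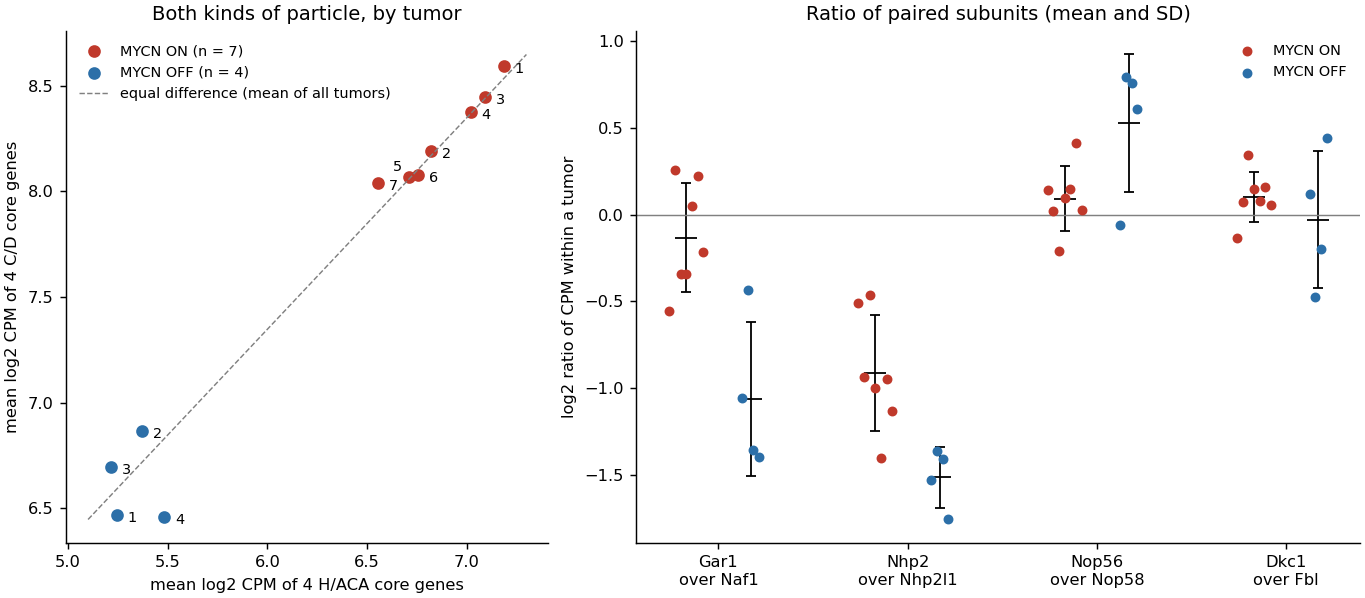
Left, mean log2 CPM of the 4 C/D core genes against that of the 4 H/ACA core genes, with 1 numbered point per tumor; the MYCN ON tumors (red) lie along a line of equal difference at 6.56 to 7.19 on the H/ACA axis and the MYCN OFF tumors (blue) scatter round it at 5.22 to 5.48. Right, log2 ratios of paired subunits in each tumor with mean and SD, MYCN ON (n = 7) left of MYCN OFF (n = 4) in each pair.

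To compare levels between genes, CPM was divided by the length of the principal GENCODE M21 transcript. In MYCN ON the C/D scaffold genes were highest, Nop58 at 232 ± 56.2 and Nop56 at 223 ± 37.9 CPM per kb, followed by Fbl at 194 ± 47.8 CPM per kb (SD, n = 7). These 3 levels did not differ beyond their spread. Nhp2 (125 ± 32.8 CPM per kb) and Nhp2l1 (116 ± 12.5) came next, then Nop10 (91.6 ± 12.4) and Dkc1 (88.6 ± 19.5), and within each of these pairs the spreads overlapped. Nolc1 (62.2 ± 24.3), Gar1 (48.5 ± 6.48) and Naf1 (23.4 ± 7.19) were lowest.

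In MYCN OFF the order was led by Nop56 at 78.3 ± 20.6 CPM per kb, with Nop58 at 58.4 ± 7.2, Nhp2l1 at 57.0 ± 8.3, Nop10 at 48.9 ± 16.9 and Fbl at 48.3 ± 13.4 CPM per kb (SD, n = 4). Neighbours in this order overlapped in their spread. Nhp2 was at 39.5 ± 3.82 CPM per kb, and a low group followed, with Dkc1 at 19.6 ± 0.314, Gar1 at 18.1 ± 6.36, Nolc1 at 17 ± 4.65 and Naf1 at 15.9 ± 4.23 CPM per kb. Naf1 was thus level with Nolc1, Gar1 and Dkc1 in MYCN OFF and below each of them in MYCN ON.

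Genes with the most similar profile over the 11 tumors were sought for both enzymes by the root-mean-square difference between centred log2 CPM values, a measure that the group difference dominates. The nearest gene to Dkc1 was Pus7, a pseudouridine synthase that needs no guide RNA, at 0.16, followed by its fellow member Nop58 at 0.18, C1qbp at 0.20, the mitochondrial chaperonin Hspd1 at 0.21 and the mitochondrial import factor Timm8a1 at 0.21. The median distance of all genes to Dkc1 was 1.20. The nearest genes to Fbl were C1qbp at 0.20, the importin Ipo5 at 0.21, the ribosome assembly factor Rrp15 at 0.21, the arginine methyltransferase Prmt1 at 0.22 and the checkpoint kinase Chek2 at 0.22, with a median of 1.16 over all genes. Among the members themselves, Dkc1 and Nop58 were the closest pair, at 0.18, and Naf1 and Nolc1 the most distant, at 0.85.

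The members work with a wider set of genes, listed here by role. Of 73 listed genes 65 were tested, and 43 rose and 0 fell at an edgeR adjusted p below 0.05. The median log2 fold change was positive in each of the 8 lists. Over all genes tested, 16.0% rose and 13.4% fell. The count depended on the settings more than that of the members: it was 10 with the mitosis covariate, 15 with the lung covariate, 19 at an adjusted p below 0.01, 22 with library totals and 30 without MYCN OFF tumor 1. Calls over all genes fell in these settings too. In the same order 491, 1185, 1187, 1317 and 1847 genes were called higher, against 2437 in the main fit. That was 3.22% of all genes with the mitosis covariate and 7.78% with the lung covariate.

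**Figure D4:**
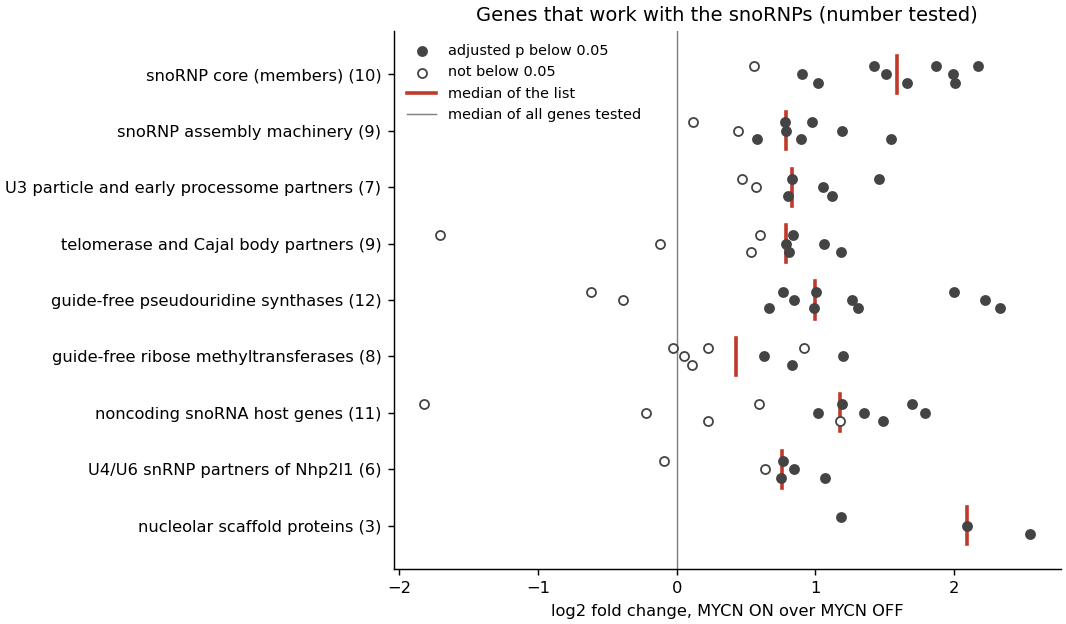
Log2 fold change of MYCN ON over MYCN OFF for the members and the 8 lists of partner genes, with 1 point per gene tested, filled where the edgeR adjusted p was below 0.05. Red bars mark list medians, from 0.43 for the guide-free ribose methyltransferases to 2.10 for the nucleolar scaffold proteins, and the grey line marks the median of all genes tested, 0.00.

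Factors that assemble snoRNPs include the R2TP co-chaperone complex, built on the ATPases Ruvbl1 and Ruvbl2. Of 9 such genes 7 rose and 0 fell, with a median log2 fold change of 0.79. Taf9, which has been tied to this machinery besides its role in transcription complexes, was at 182 ± 23.5 CPM in MYCN ON against 79.7 ± 5.63 CPM in MYCN OFF (log2 fold change 1.19). Nufip1, the platform on which C/D proteins gather, was at 40.9 ± 11.04 CPM in MYCN ON against 13.98 ± 4.14 CPM in MYCN OFF (1.55). Ruvbl2 was at 138 ± 41.7 CPM in MYCN ON against 70.01 ± 24.4 CPM in MYCN OFF (0.98), and the R2TP subunit Rpap3 at 44.6 ± 5.48 CPM in MYCN ON against 26.0 ± 7.82 CPM in MYCN OFF (0.78). The median of these genes was below that of the proteins they assemble, 1.59, a contrast that was not tested. With library totals, the lung covariate or the mitosis covariate 2 of these genes were called higher, with upper quartile factors or without MYCN ON tumor 1, 3 or 4 or MYCN OFF tumor 1 or 4 there were 4, and without MYCN OFF tumor 3 there were 3.

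Proteins of the U3 particle and the early processome, which cleave the ribosomal precursor, had 5 of 7 genes higher and 0 lower, with a median log2 fold change of 0.83. Mphosph10 and Imp4, parts of a subcomplex that binds U3, were at 70.07 ± 16.3 CPM in MYCN ON against 33.7 ± 5.46 CPM in MYCN OFF and at 50.7 ± 15.3 CPM in MYCN ON against 23.3 ± 2.35 CPM in MYCN OFF. Rcl1 had the largest log2 fold change of the list, 1.46, and its GTPase partner Bms1 had 0.83. With library totals 3 of the 7 were called higher, with the lung covariate 1 and with the mitosis covariate 0 (3 at an unadjusted p below 0.05 in that edgeR fit).

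The telomerase and Cajal body partners split. Of 9 tested genes 5 rose and 0 fell (median log2 fold change 0.79). Smn1, the survival motor neuron protein, was at 51.3 ± 11.9 CPM in MYCN ON against 24.6 ± 3.41 CPM in MYCN OFF (log2 fold change 1.06). Tgs1, which adds methyl groups to the cap of some snoRNAs and of telomerase RNA, rose by 0.84. The 3′-end enzymes Papd5 and Parn rose by 0.79 and 0.81. Tert, the catalytic subunit of telomerase, was at 13.5 ± 5.90 CPM in MYCN ON against 9.31 ± 5.43 CPM in MYCN OFF and did not pass (edgeR adjusted p = 0.407). Terc, the telomerase RNA, was at 1.14 ± 0.80 CPM in MYCN ON against 3.77 ± 2.51 CPM in MYCN OFF (log2 fold change -1.71, edgeR adjusted p = 0.0742), a level near the limit of these poly(A) libraries. The count of 5 was 2 with upper quartile factors, library totals or the lung covariate, 1 with the mitosis covariate and 3 without MYCN ON tumor 1 or MYCN OFF tumor 3. Tert and Terc, chosen after their values were seen, thus did not pass while the H/ACA core that binds Terc rose.

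Enzymes that make the same modifications without a guide RNA were uneven. Of 12 stand-alone pseudouridine synthases 10 rose and 0 fell, with a median log2 fold change of 0.997. Pus7 was at 123 ± 33.7 CPM in MYCN ON against 26.2 ± 2.43 CPM in MYCN OFF (log2 fold change 2.22), and Pus7l, Rpusd2 and Pus3 rose by 2.33, 2.003 and 1.27. In 8 of the 12 genes every MYCN ON tumor was above every MYCN OFF tumor, against 11.4% of all genes tested. With library totals 6 synthases were called higher, with the lung covariate 4 and with the mitosis covariate 3. Of 8 tested ribose methyltransferases 3 rose and 0 fell, with a median of 0.43, and 4 further genes of the list were not found under these symbols. The 8 include Fbll1, a relative of Fbl that may itself work with a guide RNA, so the list is not strictly guide-free. Fbll1 did not pass (log2 fold change 0.92, edgeR adjusted p = 0.545). Ftsj3, which methylates ribosomal precursor RNA, was at 146 ± 48.5 CPM in MYCN ON against 63.7 ± 22.6 CPM in MYCN OFF (1.20), Ftsjd1 rose by 0.83 and Mrm1 by 0.63, while Ftsj1 was at 31.8 ± 6.09 CPM in MYCN ON against 27.2 ± 3.64 CPM in MYCN OFF and did not pass (edgeR adjusted p = 0.393). The count of 3 was 1 with RLE or upper quartile factors, library totals, no low-count filter, or without MYCN ON tumor 2, 3, 4 or 7 or MYCN OFF tumor 1 or 3. It was 0 with the lung or the mitosis covariate (2 and 1 at an unadjusted p below 0.05 in these edgeR fits). The difference between the 2 enzyme lists was not tested.

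Noncoding host genes, whose introns release snoRNAs, had 6 of 11 tested genes higher and 0 lower, with a median log2 fold change of 1.18. Gas5, a host of many C/D RNAs, was at 114 ± 13.3 CPM in MYCN ON against 40.5 ± 16.8 CPM in MYCN OFF (log2 fold change 1.49). Snhg4, Snhg6 and Snhg7 rose by 1.70, 1.35 and 1.19. With the mitosis covariate 2 hosts were called higher. The spliced RNAs of these hosts are translated little or not at all. The rise in protein genes of the particles was thus accompanied by a rise in several host transcripts of the guide RNAs.

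Partners of Nhp2l1 in the spliceosomal U4/U6 particle had 4 of 6 genes higher and 0 lower, with a median log2 fold change of 0.76. Prpf31, which binds the U4 complex of Nhp2l1 and is a relative of Nop56 and Nop58, was at 81.3 ± 15.5 CPM in MYCN ON against 48.3 ± 10.2 CPM in MYCN OFF (log2 fold change 0.75). Ppih, Prpf4 and Prpf3 rose by 1.07, 0.85 and 0.77. However, 2 genes were called without MYCN OFF tumor 1 or tumor 4, and 0 with library totals, the lung covariate or the mitosis covariate (3, 4 and 0 at an unadjusted p below 0.05 in these edgeR fits). All 3 nucleolar scaffold genes rose. Npm1 was at 2147 ± 679 CPM in MYCN ON against 366 ± 49.2 CPM in MYCN OFF (2.55), Ncl, which encodes nucleolin, was at 2024 ± 558 CPM in MYCN ON against 474 ± 88.5 CPM in MYCN OFF (2.10), and Tcof1 rose by 1.19.

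The reads of 3 members may be mixed with those of an opposite-strand neighbour, or may have been set aside as ambiguous. The strand setting of the counting is not given in the sources used here. Ambiguous records were 0.83% to 1.04% per tumor. In GENCODE M21 the end of Nop56 overlapped Idh3b by 5 bases, Dkc1 overlapped Mpp1 by 45 bases and Nhp2 overlapped Rmnd5b by 44 bases. Mpp1 was at 18.4 ± 3.45 CPM in MYCN ON against 32.7 ± 10.8 CPM in MYCN OFF (log2 fold change -0.83), opposite in direction to Dkc1, and Idh3b (0.19) and Rmnd5b (-0.39) did not pass (edgeR adjusted p = 0.399 and 0.143). Reads that aligned to several places were not counted; they made up 13.8% to 20.9% of the records in MYCN ON and 9.15% to 11.9% in MYCN OFF, so members with processed pseudogenes could have lost reads unequally, which was not tested.

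Since the members moved together, their promoters were read for shared letters. RefSeq (GRCm38.p6) windows matched 8 members, Nhp2l1 under its symbol Snu13, and Fbl and Naf1 are named only. Within 250 bases before the start, on either strand, CACGTG, the E-box preferred by MYC and MAX, was in 0 of 8 members and in 6.02% of all 32851 promoters. CACGCG, a variant E-box, was in 1 of 8 members (Nolc1) and in 7.62% of all promoters. With so few promoters, these E-box counts cannot be told apart from the shares over all promoters. Bases after the start were not searched, so the counts do not show that the members lack E-boxes. CCGGAA, a core of ETS factor sites that was chosen after the windows were seen, was in 5 of 8 members (Gar1, Nhp2, Nhp2l1, Nolc1 and Nop58) and in 12% of all promoters. These are matches of letters and not sites of binding. The windows below show where they lie, with capitals for CCGGAA or its reverse complement TTCCGG, which overlap in Gar1, and for CGCGTG, the reverse complement of CACGCG, in Nolc1, each written 5′ to 3′ on the strand of the gene.
Nop58, plus strand, chr1:59684870-59685005: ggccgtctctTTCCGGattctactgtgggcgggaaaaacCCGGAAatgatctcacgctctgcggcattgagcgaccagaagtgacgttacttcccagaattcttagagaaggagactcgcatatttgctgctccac
Nhp2, plus strand, chr11:51619673-51619772: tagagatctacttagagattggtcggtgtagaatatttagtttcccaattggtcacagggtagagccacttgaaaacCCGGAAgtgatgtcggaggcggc
Gar1, minus strand, chr3:129831397-129831496: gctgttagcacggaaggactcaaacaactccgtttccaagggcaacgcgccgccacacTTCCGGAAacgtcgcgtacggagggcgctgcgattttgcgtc
Nolc1, plus strand, chr19:46075747-46075846: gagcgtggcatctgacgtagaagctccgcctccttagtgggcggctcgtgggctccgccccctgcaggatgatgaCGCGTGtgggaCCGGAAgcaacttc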

How the data were processed

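TRIzol lysis, oligo-dT capture of mRNA and the NEBNext Ultra kit were used, per the labels' protocols. The submitters' processing notes name bcl2fastq 1.8.4, TopHat2 2.0.8b, HTSeq 0.6.1 and build mm9; annotation and strand setting are not given in the sources used here. The authors deposited raw read counts per gene symbol; 5 summary rows were left out of library sizes and tests. Records without a gene were 14.8% to 21.5% per tumor.

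Counts were fitted in R 4.3.3 with edgeR 4.0.16 (filterByExpr, minimum count 10 and total 15; TMM; robust quasi-likelihood test, no covariate) over 15237 genes with Benjamini-Hochberg adjustment. SE is the absolute log2 fold change over the square root of F. Ratios used log2 CPM with a prior count of 2. Lengths and snoRNAs came from GENCODE M21 and promoters from RefSeq, both of build GRCm38, so no coordinate was joined to the mm9 counts except by symbol. The 10 members, the lists and the alternatives (scalings, DESeq2 1.42.0, limma 3.58.1 voom, filters, covariates, tumors left out) were chosen with earlier results of these data known. Named genes were all members, Mycn, up to 4 genes per list with the smallest p, and the 5 nearest profiles to Dkc1 and Fbl. Tert, Terc, Fbll1, Chga, Syp and the overlapping neighbours Mpp1, Idh3b and Rmnd5b were named after their values were seen. The test was checked on simulated counts. Depth was 8951733 to 13123838 reads per tumor, and the spread between tumors set the precision. No library looked like a copy of another.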

Additional observations from a re-analysis of the deposited data

Results flagged for a closer look

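Summed reads of 69 genes named Snord, which encode C/D snoRNAs and of which only 3 passed the filter on low counts, belonged to no comparison and were marked because the groups did not overlap. The lowest MYCN ON tumor was at 11.1 CPM and the highest at 18.6 CPM, against 5.92, 2.87, 7.3 and 4.97 CPM in MYCN OFF tumors 1 to 4. These are 122 to 183 reads per tumor in MYCN ON and 29 to 108 in MYCN OFF, in libraries made from poly(A) RNA, which captures mature snoRNAs poorly. Reads of a host transcript and of the snoRNA in its intron cannot be told apart here. The 36 Snora genes, for H/ACA RNAs, summed to 11.9 to 21.1 CPM in MYCN ON and 7.03 to 12.5 CPM in MYCN OFF, with overlap. No single tumor stood apart from its group by Dixon's criterion in any of the 32 sets of values examined, although chance alone would mark about 1 in 20.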

How the results depend on the processing

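Of the members, 9 were called higher and 0 lower with RLE or upper quartile factors, DESeq2, limma voom, either other low-count filter, the lung covariate, the replicate block and each tumor left out in turn. Library totals and an adjusted p below 0.01 gave 8 (without Nop10), the mitosis covariate 7, and the lung-poor and lung-containing subsets 0 each. Upper quartile factors shifted the median of all genes by -0.21 on the log2 scale, library totals by -0.31 and RLE factors by -0.08; the members' median was then 1.38, 1.27 and 1.51.

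Partner genes called higher, 43 in the report, were 22 with library totals, 15 with the lung covariate, 10 with the mitosis covariate, 19 at an adjusted p below 0.01 and 30 to 43 with a tumor left out. Partner genes called lower, 0 in the report, were 1 with RLE and with upper quartile factors (Rpusd1), 2 with library totals and with DESeq2 (Rpusd1 and Terc), 1 with the replicate block (Snhg11) and 0 to 1 with a tumor left out. Ftsj1, not called, changed sign to -0.088 with library totals and to -0.039 with the lung covariate. Of all genes, 2437 were higher: 1317 with library totals, 1185 with the lung covariate, 491 with the mitosis covariate, 1187 at an adjusted p below 0.01 and 1674 to 2955 with a tumor left out. The 2038 genes lower became 3347 with library totals, 3258 with DESeq2, 1152 with the replicate block, 538 with the lung covariate, 190 with the mitosis covariate, 516 at an adjusted p below 0.01 and 1015 to 2438 with a tumor left out. The causes were not tested.

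With a tumor left out, the difference in ratio was 0.82 to 1.14 for Gar1 to Naf1, -0.63 to -0.34 for Nop56 to Nop58, -0.017 to 0.288 for Dkc1 to Fbl and 0.52 to 0.68 for Nhp2 to Nhp2l1. Prior counts of 1 and 5 changed no ratio call. The difference in C/D minus H/ACA level, 0.08 in the report, was 0.29 with Naf1 added and -0.02 to 0.15 with a tumor left out.

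Whether the replicate numbers pair the tumors could not be settled. Deviations of equally numbered tumors correlated at -0.16, 0.46, -0.08 and 0.27. Of the 4 MYCN OFF tumors, 2 correlated best with their own number, and 4 pairs are too few to exclude a pairing. Genes near 1 CPM, such as Terc, are limited by depth.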
